A study of Mus musculus with 55 samples.

Results

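The antiviral interferon-stimulated genes followed here are 36 genes. Many of their products sense viral RNA or DNA, block translation of viral messages, or act on viral entry, replication and release. Others, such as Usp18 and Rtp4, restrain the interferon response or have further roles. They were taken as a named list and matched by symbol to the Ensembl identifiers of the gene count tables of infarcted mouse heart. All 36 were present among 56941 genes at day 7 and 57186 genes at day 28, and all 36 passed the filter on low counts, which left 18165 and 18901 genes to test. The rule is a list by gene function with no threshold on these counts, but the list was set with earlier results of these data known.

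The libraries were made from left ventricular infarct tissue of C57BL/6J mice after permanent ligation of a coronary artery, so every group, the non-diabetic one included, had an infarct. By the sample titles each of the non-diabetic, type 1 and type 2 groups had 8 libraries at day 7, and they had 11, 10 and 10 at day 28. The library names carry Ctrl for the non-diabetic, hi STZ for the type 1 and lo STZ HFFD for the type 2 groups, so the 2 models were made by unlike treatments. The design text names day 7 only, and the library names put each day in its own sequencing project, so an effect of day and one of project cannot be told apart. Age and sex are not in the labels used here, nor is it said that each replicate is an animal of its own. Each p-value thus rests on the spread between libraries, part of which may be technical.

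As background, cells that detect foreign or misplaced nucleic acid secrete type I interferon, which binds a receptor found on nearly all cell types. The receptor's kinases activate Stat2, which acts with Irf9 at a short DNA element, the interferon-stimulated response element, in front of many interferon-stimulated genes. Irf7, itself induced by interferon, amplifies the response, while Usp18 and other induced proteins damp it. After myocardial infarction this programme is known from infiltrating myeloid cells as well as from resident cells of the heart.

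The response element is taken here as GAAA, any 2 bases and GAAA again. It was searched on both strands of RefSeq promoters (GRCm38.p6) that run from 250 bases before to 50 bases from the annotated start. Of the 36 genes, 26 had a promoter in the table, and 12 of these 26 (46.2%) held a match, as did 3.44% of all 32851 promoters of the same length. The genes without an entry are Mx1, Usp18, Ifi27l2a, Zbp1, Dhx58, Oas2, Parp9, Parp14, Mx2 and Rtp4. A match is a description of letters, not a site shown to be bound.

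The sequences shown are the 120 bases just before the start, 5′ to 3′ on the gene's strand, with matches of the response element on either strand in capitals. Isg15 and Ifit1 are shown as classical targets, Oas1a, Oas1g and Oas3 as the family with the largest changes, Ddx60 as a gene whose change differed between days, and Dtx3l and Lgals3bp as genes without a match in the searched promoter.
Isg15, chr4:156200819-156200938, minus strand: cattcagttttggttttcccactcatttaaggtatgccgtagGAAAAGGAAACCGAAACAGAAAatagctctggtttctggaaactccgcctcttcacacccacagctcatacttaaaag
Ifit1, chr19:34640769-34640888, plus strand: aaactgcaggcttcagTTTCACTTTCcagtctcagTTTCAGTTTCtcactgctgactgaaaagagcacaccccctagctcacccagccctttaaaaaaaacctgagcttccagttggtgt
Oas1a, chr5:120907526-120907645, minus strand: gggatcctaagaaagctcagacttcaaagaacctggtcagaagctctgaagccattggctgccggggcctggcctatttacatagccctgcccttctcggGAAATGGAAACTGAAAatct
Oas1g, chr5:120887614-120887733, minus strand: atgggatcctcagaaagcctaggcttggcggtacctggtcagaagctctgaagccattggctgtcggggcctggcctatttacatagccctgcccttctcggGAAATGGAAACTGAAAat
Oas3, chr5:120777660-120777779, minus strand: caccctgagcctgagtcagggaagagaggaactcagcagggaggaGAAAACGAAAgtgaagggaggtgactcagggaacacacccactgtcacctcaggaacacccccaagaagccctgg
Ddx60, chr8:61927967-61928086, plus strand: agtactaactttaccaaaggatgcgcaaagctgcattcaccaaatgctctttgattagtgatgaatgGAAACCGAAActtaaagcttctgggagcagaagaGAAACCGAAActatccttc
Dtx3l, chr16:35939028-35939147, minus strand: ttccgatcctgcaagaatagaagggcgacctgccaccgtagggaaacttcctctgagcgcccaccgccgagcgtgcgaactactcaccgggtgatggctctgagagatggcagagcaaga
Lgals3bp, chr11:118401960-118402079, minus strand: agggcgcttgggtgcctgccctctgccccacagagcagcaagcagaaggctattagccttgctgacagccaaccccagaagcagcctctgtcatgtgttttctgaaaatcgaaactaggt

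In Isg15 3 matches overlapped into a single run, and Oas1a and Oas1g carried the same run of 2 overlapping matches close to the start. Ddx60 had 2 separate matches, Oas3 had 1, and the 2 matches of Ifit1 lie on the opposite strand. Dtx3l, which has no match in this window, was the member with the smallest change in type 2 tissue on both days, and Lgals3bp, also without one, was called on both days in both diabetic groups.

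Library totals ran from 10756200 to 51158000 counts at day 7 and from 48105300 to 92869300 at day 28. Reads of close copies can be split between genes: of the 50-base stretches in its annotated transcripts, Oas1a shared 57.6% with Oas1g or Oas1b, Oas1g shared 45.7% with other genes, and Ifit3 shared 51.2% with Ifit3b. Values of these 3 genes are uncertain for that reason. Herc6 and Rtp4 shared 12.5% and 11.6%, and the other 31 genes at most 7.14%. Type 1 replicate 4 at day 7, high in adipocyte and B cell genes, and type 2 replicate 4 at day 28, high in B cell genes, stand apart from their groups. Without the first, 26 of the 36 genes were called higher in type 1 than in non-diabetic tissue, against 24 with it. Without the second, 36 were called higher in type 2 tissue, as with it.

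Every one of the 36 genes was higher in type 2 diabetic than in non-diabetic infarct at day 7, and again at day 28. Of all tested genes 3.85% were called higher at day 7 and 7.21% at day 28. The smallest change was in Dtx3l (log2 change 0.45 at day 7 and 0.36 at day 28), and the largest was in Oas1g at day 7 (1.86) and in Oas3 at day 28 (1.87). In type 1 diabetic infarct 24 genes were higher at day 7 (11.1% of all tested genes), and 4 at day 28 (2.6%). A call at day 7 alone does not test a difference between days. Tested directly, type 2 was called above type 1 tissue for 24 genes at day 7 (1.19% of all tested genes) and 34 at day 28 (2.03%). The day 7 count depended on single libraries, as given below.

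The mean log2 CPM (counts scaled to library size) over the 36 genes summarises the libraries. Non-diabetic tissue of day 7 had 4.74 ± 0.20 (SD, n = 8), type 1 tissue had 5.17 ± 0.20 (n = 8) and type 2 tissue had 5.67 ± 0.16 (n = 8). For day 28 the values in that order were 4.04 ± 0.20 (n = 11), 4.29 ± 0.22 (n = 10) and 5.04 ± 0.31 (n = 10). The lowest type 2 library at day 7, at 5.48, exceeded every non-diabetic library (up to 5.03) and was just under the top type 1 library, also at 5.48. By day 28 the lowest type 2 library (4.61) again exceeded every non-diabetic one (up to 4.38) but not the top type 1 library (4.64).

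**Figure D1:**
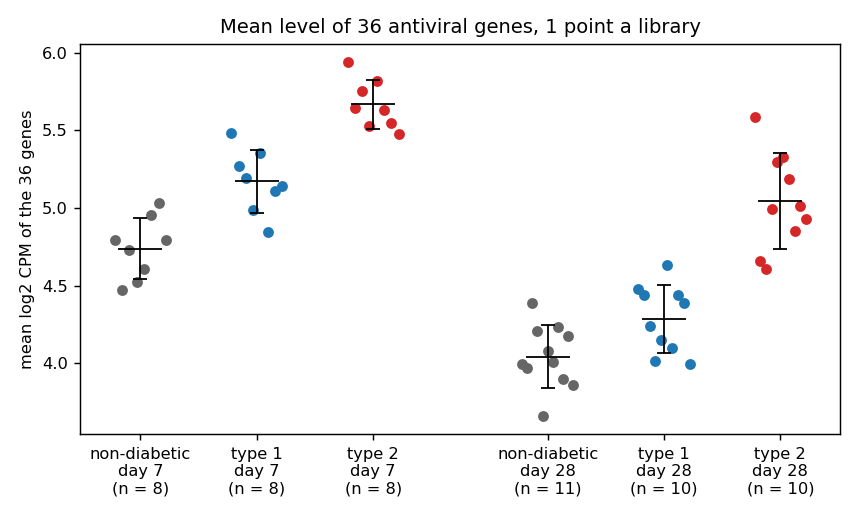
Mean log2 CPM of the 36 genes in each of the 55 libraries (y axis), by group and day (x axis). Points are libraries, the long black line is the group mean and the bar its SD. Type 2 libraries do not overlap non-diabetic ones on either day, while type 1 libraries overlap non-diabetic ones on both days.

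At day 7 the test of type 2 against non-diabetic tissue called 36 of 36 genes higher and 0 lower, where 3.85% of all tested genes were called higher and 3.5% lower. Their median log2 change was 0.86, beside −0.03 over all tested genes, and 12 genes changed over 2-fold. For 32 genes each type 2 library lay above each non-diabetic library, which held for 1.24% of tested genes. The 4 genes with overlapping groups were Isg15, Ifit2, Rsad2 and Samd9l.

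At day 28 the same test called 36 higher (7.21% of tested genes were called higher) and 0 lower. The median log2 change was 1.03, beside −0.00286 over all tested genes, and 19 genes changed over 2-fold. Groups did not overlap for 19 genes, against 0.354% of tested genes. Leaving out any 1 library took no gene from the 36 called on either day. Some other settings called fewer of the 36, as given below. These are bulk samples, in which more cells of a type that expresses a gene and more RNA of that gene per cell cannot be told apart.

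**Figure D2:**
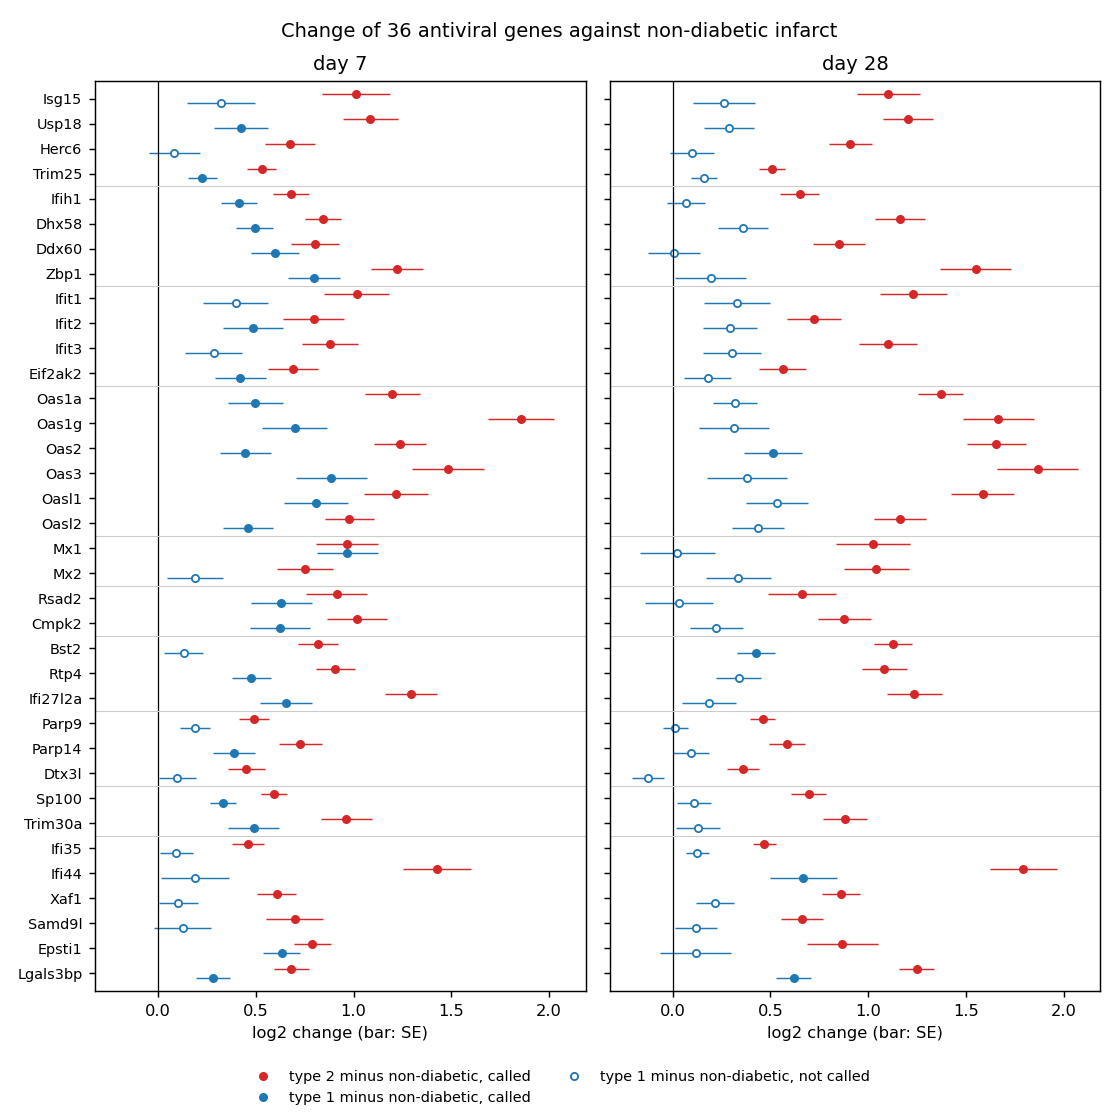
Log2 change of each of the 36 genes against non-diabetic tissue (x axis, bars are SE), at day 7 and day 28. Genes are in rows, parted by role with grey lines; red is type 2, blue type 1, filled points were called and open points were not. All red points are filled, and most blue points at day 28 are open.

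The first group by role is Isg15 and the enzymes that attach or remove it. Isg15 (ENSMUSG00000035692) encodes a ubiquitin-like protein that is conjugated to other proteins and also secreted. Its level at day 7 ran from 12.3 to 39.0 CPM (median 24.9) in non-diabetic, 17.4 to 39.7 (median 32.2) in type 1 and 38.3 to 64.2 (median 47.3) in type 2 libraries. The highest non-diabetic library just passed the lowest type 2 library. Isg15 was 1.01 higher on the log2 scale in type 2 tissue (SE 0.174, adjusted p = 0.00076), and was at 0.32 in type 1 tissue (SE 0.173, adjusted p = 0.187). By day 28 the ranges were 9.53 to 22.4, 11.8 to 23.3 and 21.1 to 53.3 CPM, with medians of 13.6, 16.4 and 25.8. The log2 change was 1.10 in type 2 (adjusted p = 2.35e-05) and 0.26 in type 1 tissue (adjusted p = 0.375).

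Usp18, the protease that takes Isg15 off proteins and blocks the interferon receptor, went from a median of 11.2 CPM (9.48 to 16.1) in non-diabetic to 16.8 (11.7 to 21.4) in type 1 and 24.6 (19.8 to 35.5) in type 2 tissue at day 7. Type 2 and non-diabetic libraries did not overlap. Its log2 change was 1.09 in type 2 and 0.42 in type 1 tissue, both called. The day 28 medians were 9.09, 11.7 and 18.9 CPM, and each type 2 library (13.6 to 35.2) lay above all non-diabetic (7.33 to 12.7) and all type 1 libraries (8.84 to 13.3). Herc6, the mouse ligase that attaches Isg15, was at 0.67 in type 2 and 0.08 in type 1 tissue at day 7, and at 0.91 and 0.10 at day 28. Trim25, a ubiquitin ligase of the RIG-I pathway, was at 0.53 and 0.23 at day 7, and at 0.51 and 0.16 at day 28. In this group all 4 genes were higher in type 2 tissue on both days, and 2 of 4 (Usp18 and Trim25) in type 1 tissue at day 7.

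Among the nucleic acid sensors, Ifih1 encodes MDA5, which binds long double-stranded RNA. At day 7 it ran from 20.9 to 34.6 CPM (median 30.7) in non-diabetic, 33.9 to 49.7 (38.2) in type 1 and 41.4 to 54.4 (47.6) in type 2 tissue. The type 2 and non-diabetic groups were apart, and the type 1 group overlapped both. At day 28 the ranges were 15.4 to 24.8, 16.2 to 25.9 and 23.5 to 42.9 CPM, with medians of 19.7, 21.3 and 30.2, and type 2 overlapped the others at its low end. Its log2 change in type 2 tissue was 0.68 at day 7 and 0.65 at day 28, and in type 1 tissue 0.41 and 0.07, the last not called.

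Zbp1 senses Z-form nucleic acid and can start cell death. At day 7 it was at 9.85 to 20.4 CPM (median 18.1) in non-diabetic, 22.8 to 36.2 (30.2) in type 1 and 31.6 to 54.6 (37.2) in type 2 libraries, so neither diabetic group overlapped the non-diabetic one. The log2 change was 1.22 in type 2 (SE 0.134, adjusted p = 3.64e-06) and 0.80 in type 1 tissue (SE 0.133, adjusted p = 0.000331). At day 28 type 2 libraries (15.0 to 37.2 CPM, median 24.3) lay above all type 1 libraries (6.96 to 14.9, median 9.40) and non-diabetic libraries (3.88 to 12.4, median 7.40). The change was 1.55 in type 2 tissue and 0.19 in type 1 tissue (adjusted p = 0.592). Dhx58, which encodes the sensor LGP2, was at 0.84 and 1.16 in type 2 tissue at day 7 and day 28, and Ddx60, a helicase of the same pathway, at 0.80 and 0.85. In type 1 tissue all 4 sensors were called at day 7 and none of them at day 28. By edgeR's test of the difference between days only Ddx60 was called there (adjusted p = 0.0222). Ifih1, Zbp1 and Dhx58 were not (adjusted p = 0.0781, 0.079 and 0.619).

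The IFIT proteins bind viral RNA and hold it back from translation. Ifit1 ran at day 7 from 18.1 to 42.5 CPM (median 28.6) in non-diabetic, 22.5 to 48.1 (38.8) in type 1 and 46.7 to 77.2 (59.3) in type 2 tissue, with type 2 apart from non-diabetic. By day 28 the ranges were 13.02 to 30.95, 17.0 to 40.5 and 30.9 to 83.4 CPM, with medians of 20.7, 24.6 and 41.5, and the highest non-diabetic library just passed the lowest type 2 library. Its log2 change was 1.02 and 1.23 in type 2 tissue on the 2 days, and 0.40 and 0.33 in type 1 tissue, where neither was called.

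Ifit3, which shares much of its sequence with Ifit3b, had medians of 44.4 (33.6 to 65.4), 56.4 (34.7 to 76.2) and 90.6 (69.7 to 108) CPM at day 7 in non-diabetic, type 1 and type 2 tissue. At day 28 they were 42.4 (29.2 to 66.5), 53.2 (39.3 to 70.5) and 84.0 (69.6 to 163) CPM. Type 2 libraries lay above all non-diabetic libraries on both days. The log2 change in type 2 tissue was 0.88 and 1.10.

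Eif2ak2 encodes PKR, the kinase that stops translation on double-stranded RNA. It had medians of 40.8 (19.7 to 52.9), 54.2 (44.4 to 67.1) and 65.8 (60.8 to 72.5) CPM at day 7, with type 2 apart from non-diabetic, and 19.6 (15.2 to 30.3), 23.7 (16.4 to 29.4) and 29.9 (21.6 to 41.6) CPM at day 28, with overlap. The change in type 2 tissue was 0.69 at day 7 (adjusted p = 0.00174) and 0.56 at day 28 (adjusted p = 0.00218). Ifit2 was at 0.80 and 0.72 in type 2 and at 0.49 and 0.29 in type 1 tissue. Ifit2 and Eif2ak2 were the members not called between type 2 and type 1 tissue at day 28.

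The oligoadenylate synthetases make a short RNA messenger that switches on RNase L. They were the role group with the largest median change in type 2 tissue on both days, 1.23 at day 7 and 1.62 at day 28, with 6 of 6 called. Oas1g (ENSMUSG00000066861), one of several Oas1 copies, ran from 2.00 to 4.72 CPM (median 3.94) in non-diabetic, 4.03 to 7.77 (6.53) in type 1 and 9.95 to 17.8 (12.5) in type 2 tissue at day 7. Type 2 libraries lay above all others, and the log2 change was 1.86 (SE 0.169, adjusted p = 4.17e-07) in type 2 and 0.70 (SE 0.167, adjusted p = 0.00449) in type 1 tissue. The day 28 medians were 2.02 (1.13 to 3.82), 2.51 (2.12 to 3.73) and 6.75 (4.3 to 10.3) CPM, again with type 2 above all others.

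Oas3 (ENSMUSG00000032661) had medians of 12.8 (5.85 to 16.3), 22.3 (14.7 to 31.7) and 31.1 (24.9 to 43.4) CPM at day 7, and of 2.66 (1.61 to 4.85), 3.97 (2.01 to 5.75) and 11.7 (5.99 to 16.8) CPM at day 28. At day 28 each type 2 library lay above all others, and the log2 change was 1.87 (SE 0.207, adjusted p = 4.15e-07) in type 2 and 0.38 (adjusted p = 0.303) in type 1 tissue. At day 7 the change was 1.48 and 0.89, both called.

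Oas2 ran from 21.2 to 42.4 CPM (median 33.2) in non-diabetic, 31.2 to 58.7 (44.0) in type 1 and 65.9 to 100 (73.0) in type 2 tissue at day 7, with type 2 above all others. At day 28 the ranges were 15.2 to 22.3, 17.8 to 34.2 and 32.5 to 94.6 CPM, with medians of 19.6, 26.9 and 59.9. The log2 change at day 28 was 1.66 (SE 0.150, adjusted p = 8.94e-09) in type 2 and 0.51 (SE 0.148, adjusted p = 0.0456) in type 1 tissue; the latter call was lost without any 1 of 16 of the 21 libraries (adjusted p up to 0.0938).

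Oasl2, an Oas-like protein, had medians of 78.0 (40.5 to 91.1), 105 (75.7 to 135) and 148 (126 to 168) CPM at day 7, and of 43.2 (33.0 to 66.6), 58.0 (42.4 to 92.0) and 103 (62.0 to 140) CPM at day 28. Type 2 was apart from non-diabetic at day 7 only. Its change in type 2 tissue was 0.98 and 1.16. Oas1a was at 1.20 and 1.37, and Oasl1, which represses translation of Irf7, at 1.22 and 1.58.

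Mx proteins, where functional, are GTPases that trap incoming viruses. Only RNA was measured here, and whether these mice make working Mx protein was not tested. Mx1 (ENSMUSG00000000386) was the member for which the diabetic groups were closest at day 7. It ran from 10.1 to 22.95 CPM (median 16.1) in non-diabetic, 24.5 to 41.1 (32.0) in type 1 and 24.8 to 42.8 (29.2) in type 2 tissue. Both diabetic groups lay above all non-diabetic libraries and overlapped each other over almost their whole range. The log2 change was 0.97 in each (SE 0.157, adjusted p = 0.000415 in type 2 and 0.000268 in type 1), and type 2 minus type 1 was −0.00037 (SE 0.155).

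At day 28 Mx1 stood at 3.72 to 11.7 CPM (median 5.41) in non-diabetic, 3.98 to 9.21 (6.54) in type 1 and 7.69 to 19.2 (12.1) in type 2 tissue. The change was 1.02 in type 2 (SE 0.191, adjusted p = 0.000565) and 0.02 in type 1 tissue (SE 0.191, adjusted p = 0.959), with overlap between all groups. Mx2 was at 0.75 and 1.04 in type 2 tissue on the 2 days, and at 0.19 and 0.33 in type 1 tissue, not called.

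Rsad2 encodes viperin, which makes a chain-terminating nucleotide, and Cmpk2, its neighbour in the genome, supplies the substrate. Rsad2 had medians of 31.7 (27.5 to 67.6), 59.9 (47.2 to 70.8) and 70.7 (57.3 to 101.1) CPM at day 7, and all 3 groups overlapped, with non-diabetic replicate 5 at 67.6 CPM. Its change was 0.91 in type 2 and 0.63 in type 1 tissue, both called. By day 28 the medians were 23.9 (18.7 to 33.2), 26.8 (15.1 to 32.9) and 38.7 (14.5 to 71.6) CPM, and the lowest library of all was type 2 replicate 4. The change was 0.66 in type 2 tissue (SE 0.175, adjusted p = 0.0126) and 0.03 in type 1 tissue. Cmpk2 was at 1.02 and 0.88 in type 2 tissue, and at 0.63 and 0.22 in type 1 tissue.

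Of the membrane proteins, Ifi27l2a and Bst2 were among the most abundant members by level per kilobase of exon. By CPM not scaled to length, Lgals3bp of another role group stood higher at day 7, as given below. Per kilobase of exon, the highest median levels in type 2 tissue at day 7 were those of Ifi27l2a (193 CPM per kb), Bst2 (153), Lgals3bp (137), Isg15 (62.6) and Ifit3 (51.9), and the lowest was that of Ddx60 (1.86). Bst2, or tetherin, holds budding virus at the cell surface. Its level at day 7 ran from 56.9 to 95.4 CPM (median 80.1) in non-diabetic, 69.7 to 107 (88.0) in type 1 and 127 to 162 (138) in type 2 tissue, with type 2 above all others. The change was 0.82 in type 2 (adjusted p = 1.69e-05) and 0.13 in type 1 tissue (adjusted p = 0.376).

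At day 28 Bst2 had medians of 45.9 (34.9 to 61.6), 60.1 (50.1 to 71.0) and 95.6 (76.3 to 137) CPM, and type 2 was again above all others. Its change was 1.13 in type 2 and 0.43 in type 1 tissue (SE 0.0964, adjusted p = 0.00953), so Bst2 was called in type 1 tissue at day 28 and not at day 7. The difference between its changes on the 2 days was 0.28 (SE 0.144, adjusted p = 0.201), not called.

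Ifi27l2a, a small protein of mitochondrial and nuclear membranes, ran from 27.6 to 43.7 CPM (median 38.1) in non-diabetic, 35.6 to 89.7 (59.4) in type 1 and 79.6 to 109 (89.5) in type 2 tissue at day 7. The highest type 1 library, replicate 4, reached into the type 2 range. At day 28 type 2 libraries (115 to 200 CPM, median 160) lay above all type 1 (55.9 to 90.3, median 76.9) and non-diabetic libraries (42.3 to 112, median 62.1). The log2 change was 1.29 and 1.24 in type 2 tissue on the 2 days, and 0.66 (called) and 0.19 (not called) in type 1 tissue. The difference between days in type 1 tissue was not called by edgeR's test (adjusted p = 0.106). Rtp4, a receptor chaperone that restrains interferon responses, was at 0.91 and 1.08 in type 2 and at 0.48 and 0.34 in type 1 tissue.

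The PARP and Deltex group had the smallest median change in type 2 tissue, 0.49 at day 7 and 0.46 at day 28, and its genes Parp14, Dtx3l and Parp9 are neighbours in the RefSeq gene order of GRCm38.p6. Dtx3l (ENSMUSG00000049502), a ubiquitin ligase that partners Parp9, ran from 37.3 to 57.2 CPM (median 47.7) in non-diabetic, 40.0 to 67.4 (51.3) in type 1 and 60.6 to 75.9 (65.5) in type 2 tissue at day 7, with type 2 apart from non-diabetic. The day 28 medians were 29.9 (25.1 to 37.7), 27.6 (24.2 to 32.1) and 38.7 (28.3 to 49.6) CPM, and all groups overlapped. Its change was 0.45 (SE 0.0952, adjusted p = 0.00473) and 0.36 (SE 0.0809, adjusted p = 0.00363) in type 2 tissue, and 0.10 and −0.13 in type 1 tissue, neither called. Parp9 was at 0.49 and 0.46, and Parp14, an ADP-ribosyltransferase of macrophage signalling, at 0.73 and 0.58 in type 2 tissue.

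Sp100, a component of nuclear bodies, was at 0.59 and 0.69 in type 2 tissue, and Trim30a, a tripartite motif protein of mouse, at 0.96 and 0.88. Both were called in type 1 tissue at day 7 (0.33 and 0.49) and neither at day 28 (0.11 and 0.13). Neither was called by edgeR's test of the difference between days in type 1 tissue (adjusted p = 0.197 and 0.162).

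Of the remaining induced proteins, Lgals3bp (ENSMUSG00000033880), a secreted glycoprotein that binds galectins, was called against non-diabetic tissue on both days in both diabetic groups, as was Oas2. At day 7 it ran from 193 to 332 CPM (median 240) in non-diabetic, 243 to 333 (292) in type 1 and 344 to 453 (390) in type 2 tissue. At day 28 the ranges were 76.9 to 130, 120 to 181 and 176 to 317 CPM, with medians of 97.6, 147 and 222. Type 2 libraries lay above all non-diabetic libraries on both days. The log2 change was 0.68 (SE 0.0887) and 1.25 (SE 0.0920, adjusted p = 2.36e-10) in type 2 tissue, and 0.28 (SE 0.0884) and 0.62 (SE 0.0912, adjusted p = 0.000138) in type 1 tissue, all called.

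Ifi44 had the largest change between the diabetic groups at day 7, type 2 over type 1 by 1.24 (SE 0.172, adjusted p = 0.000497). Against non-diabetic tissue it was at 1.42 and 1.79 in type 2, and at 0.19 (not called) and 0.67 (adjusted p = 0.0208) in type 1 tissue. The difference between days in type 1 tissue was not called by edgeR's test (adjusted p = 0.237). Ifi35 was at 0.46 and 0.47, Xaf1, an antagonist of apoptosis inhibitors, at 0.61 and 0.86, Samd9l, which restrains translation, at 0.70 and 0.66, and Epsti1 at 0.79 and 0.87 in type 2 tissue. Of these 4 only Epsti1 was called in type 1 tissue, at day 7 (0.63), where its groups did not overlap.

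**Figure D3:**
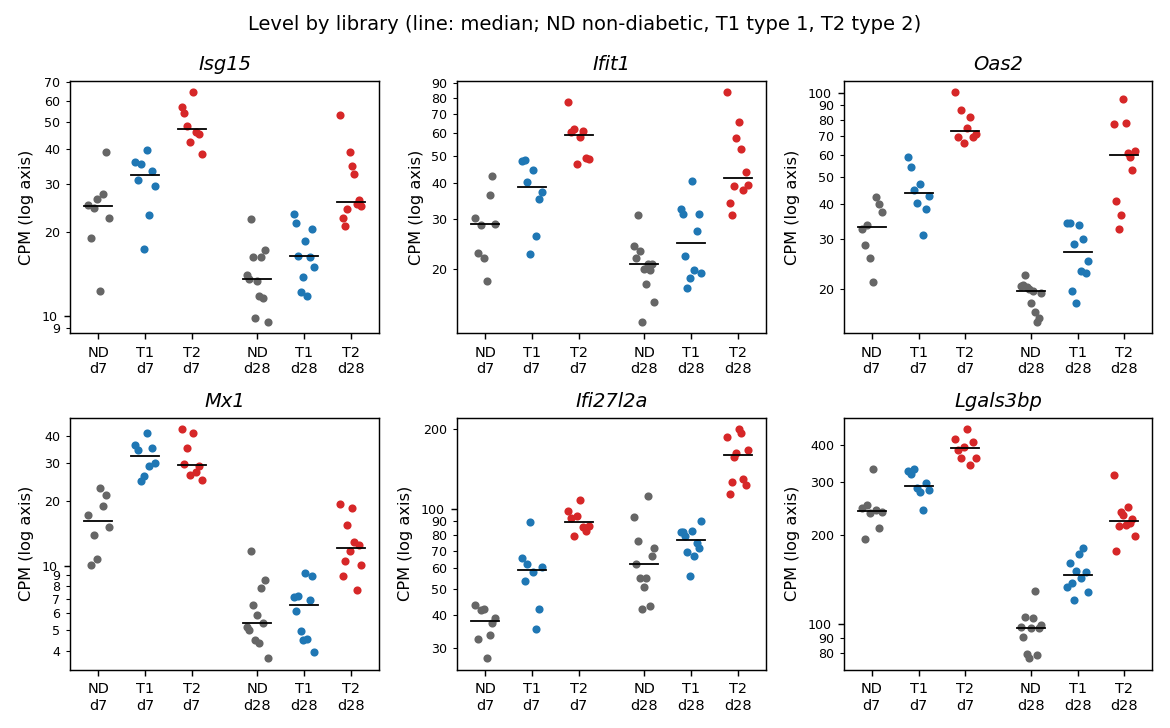
CPM of Isg15, Ifit1, Oas2, Mx1, Ifi27l2a and Lgals3bp in each library (y axis, log scale), by group and day (x axis; ND non-diabetic, T1 type 1, T2 type 2, d day). Points are libraries and lines are medians. Mx1 at day 7 lies as high in type 1 (median 32.0) as in type 2 tissue (29.2), while for Oas2 type 2 lies above both other groups at day 7 and overlaps type 1 at day 28.

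Type 1 against non-diabetic tissue at day 7 gave 24 genes called higher, where 11.1% of tested genes were called higher, and 0 lower (11.4%). The median change was 0.42, beside −0.0108 over all tested genes, and it ran from 0.08 (Herc6) to 0.97 (Mx1). Groups did not overlap for 3 genes, Zbp1, Mx1 and Epsti1 (0.617% of tested genes). Leaving out single libraries gave 22 to 27 genes; Usp18, Trim25 and Ifit2 lost their call without 1 or more libraries, and Isg15, Ifit1, Ifit3 and Parp9 gained one.

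At day 28 the same comparison called 4 genes higher, Oas2, Bst2, Ifi44 and Lgals3bp (2.6% of tested genes were called higher) and 0 lower (1.41%). The median change was 0.22 and 35 of 36 were above 0. No gene had groups apart, against 0.143% of tested genes. The count was 7 without non-diabetic replicate 3, and between 3 and 7 over all single libraries left out. With libraries summed by the first number of their name it was 0, and 6 over all tested genes. Oasl1 (0.53, adjusted p = 0.0522) and Oasl2 (0.44, adjusted p = 0.0562) were the next nearest.

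Type 2 against type 1 tissue sets the models directly against each other. At day 7 it called 24 genes higher in type 2 tissue (1.19% of tested genes) and 0 lower, with a median of 0.43, and groups were apart for 9 genes (0.336% of tested genes): Trim25, Oas1a, Oas1g, Oas2, Bst2, Parp9, Ifi44, Xaf1 and Lgals3bp. Of the 24, 12 were called without any single library and 12 were not. The count fell to 12 without type 1 replicate 6 or without type 2 replicate 2, to 13 without type 1 replicate 8 or type 2 replicate 6, to 14 without type 1 replicate 7 or type 2 replicate 1, and to 15 without type 2 replicate 5. With libraries summed by the first number of their name, which some libraries of a group share, 0 of the 36 and 0 of all tested genes were called at day 7. At day 28 it called 34 genes (2.03% of tested genes), with a median of 0.75, and groups were apart for 9 (0.206%): Usp18, Zbp1, Oas1a, Oas1g, Oas3, Oasl1, Bst2, Ifi27l2a and Sp100. Of the 34, 32 kept their call whichever single library was left out. Rsad2 (0.63, adjusted p = 0.0457) lost its call without any 1 of 15 libraries, and Epsti1 lost its call without 1 or more.

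The 3 comparisons of day 7 share libraries, so they are set side by side by gene. For 12 genes type 1 was not called against non-diabetic and type 2 was called above type 1: Isg15, Herc6, Ifit1, Ifit3, Mx2, Bst2, Parp9, Dtx3l, Ifi35, Ifi44, Xaf1 and Samd9l. For 12 others type 1 was called above non-diabetic and type 2 was not called above type 1: Ifih1, Ddx60, Zbp1, Ifit2, Eif2ak2, Oas3, Oasl1, Mx1, Rsad2, Cmpk2, Parp14 and Epsti1. The remaining 12, among them Usp18, Oas1a, Oas1g, Oas2, Ifi27l2a and Lgals3bp, were called in both, with type 1 between the other groups. A missing call does not show that 2 groups had the same level. Of the 24 calls of type 2 above type 1, 12 were lost without 1 or more single libraries. Among these were Isg15, Ifit1, Ifit3, Mx2, Parp9, Dtx3l and Samd9l. The share of all tested genes with each pattern was not computed, so these counts describe the genes and are no result about the set.

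Whether the diabetic change itself differed between days was tested in a fit of all 6 groups. For type 2 against non-diabetic tissue 1 member was called, Lgals3bp, whose change was 0.53 larger at day 28 (SE 0.126, adjusted p = 0.0198), and 1.51% of the 20421 tested genes were called either way. For type 1 against non-diabetic tissue 2 members were called, both smaller at day 28, where 5.5% of tested genes were called smaller, 6.98% larger and 12.5% either way, so the members' share was close to that of all genes and is no result about the set. Mx1 differed by −0.96 (SE 0.260, adjusted p = 0.00948) and Ddx60 (ENSMUSG00000037921) by −0.61 (SE 0.185, adjusted p = 0.0222). The median difference over the 36 was 0.07 for type 2 and −0.19 for type 1. Each of the 3 calls held without any 1 of 37 libraries. With macrophage and monocyte markers as a covariate Mx1 and Ddx60 were no longer called, Lgals3bp was not called with the replicate block, and none of the 3 was called with libraries summed by the first number of their name.

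**Figure D4:**
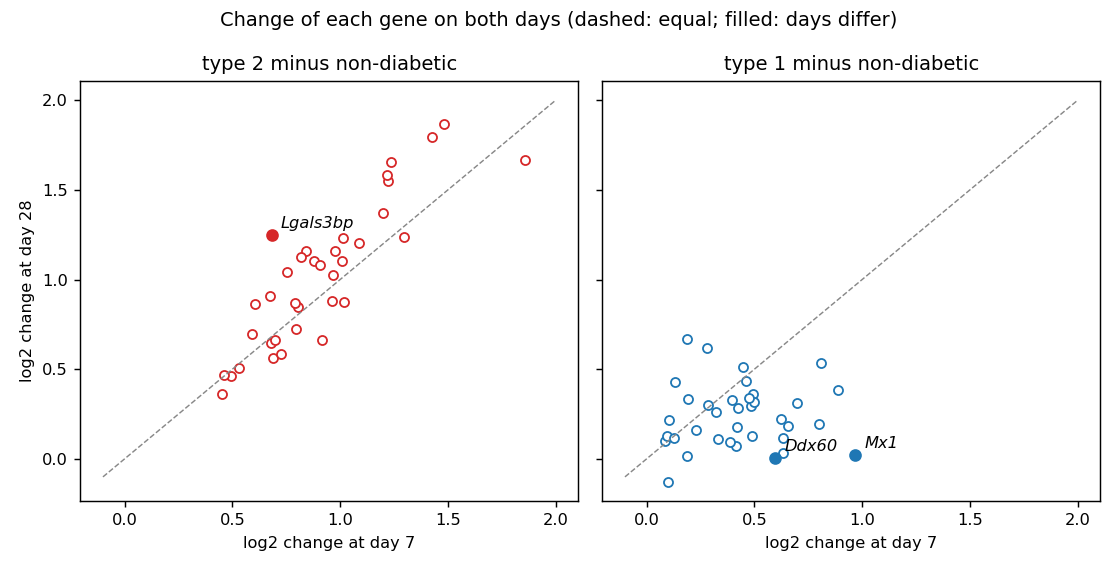
Log2 change against non-diabetic tissue at day 7 (x axis) and at day 28 (y axis) for each of the 36 genes, in type 2 (left) and type 1 tissue (right). The dashed line marks equal change, and filled, named points differed between days by the test. Mx1 and Ddx60 in type 1 tissue lie near 0 at day 28.

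Some libraries were high or low across the whole set. At day 7 type 2 replicate 1 was the highest of its group for 24 of the 36 genes, type 1 replicate 1 for 22, and non-diabetic replicate 7 for 21. Type 1 replicate 6 was among the 3 lowest of its group for all 36. At day 28 type 2 replicate 1 was the highest for 26 genes, type 1 replicate 6 for 24, and non-diabetic replicate 5 the lowest for 22. Without type 2 replicate 1 the day 28 median change against non-diabetic tissue was 0.95, with 36 genes still called.

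The rest of the pathway begins with the ligands. None of 11 type I and type III interferon genes passed the filter on low counts on either day, so none was tested. Ifnb1, interferon beta, had 10, 4 and 6 counts in all at day 7 over the non-diabetic, type 1 and type 2 groups, with 4, 6 and 5 of 8 libraries at 0. At day 28 it had 4, 6 and 22 counts, with 9 of 11, 8 of 10 and 6 of 10 libraries at 0. Ifng, interferon gamma, also failed the filter, with 30, 20 and 47 counts at day 7 and 37, 29 and 69 at day 28. Differences in the ligands were not tested. Of the 6 receptor genes tested none was called in type 2 tissue on either day, and Ifnar1, a chain of the type I receptor, was higher in type 1 tissue at day 7 (0.19, adjusted p = 0.0248).

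Among the transducers and interferon regulatory factors, Irf7 and Irf9 were higher in type 2 tissue on both days, and Stat2, Irf2 and Irf5 were called higher at day 28. Irf7 ran from 40.8 to 66.2 CPM (median 60.4) in non-diabetic, 65.8 to 116 (92.7) in type 1 and 129 to 204 (135) in type 2 tissue at day 7. By day 28 the ranges were 26.1 to 42.3, 38.0 to 76.1 and 74.1 to 224 CPM, with medians of 30.6, 52.1 and 114. Type 2 was apart from non-diabetic on both days, and Irf7 was called in type 1 tissue too, at 0.69 on day 7 and 0.76 on day 28.

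Irf9 was at 0.37 and 0.67 in type 2 tissue, and at −0.0013 and 0.14 in type 1 tissue, with no call. Stat2 was at 0.34 (adjusted p = 0.0851) at day 7 and 0.59 (adjusted p = 4e-05) at day 28 in type 2 tissue. Type 2 was called above type 1 on both days for Irf7 and Irf9. In type 1 tissue at day 7 Jak1 was higher by 0.25, while Tyk2 and Irf3 fell by 0.24 and 0.26.

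Of 13 sensors and adaptors that start interferon production, 6 were higher in type 2 tissue at day 7 and 5 at day 28, and 0 lower. Rigi, the RNA sensor RIG-I, was at 0.57 and 0.60, and Tlr9, which senses DNA, at 0.64 and 0.93. Type 1 tissue had 3 of them higher at day 7 (Myd88, Sting1 and Tlr4), Mavs fell by 0.26, and none was called at day 28. Of 8 tested brakes on the pathway 2 were higher in type 2 tissue at day 7 and 4 at day 28, with Adar, which edits double-stranded RNA, at 0.42 and 0.49. Type 1 tissue had 4 of them higher at day 7 (Ptpn2, Socs3, Ptpn6 and Samhd1), and at day 28 Socs1 fell by 0.67.

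Genes led by interferon gamma formed a separate list of 17. In type 2 tissue 4 were higher at day 7, Cxcl9, Cxcl10, Gbp3 and Irgm2, and 10 at day 28, with 0 lower. Gbp3, a guanylate-binding GTPase, was at 0.64 and 0.99, and the T cell attractant Cxcl9 at 1.46 and 1.26. In type 1 tissue Cxcl10 was higher at day 7 (0.77, adjusted p = 0.0113), and at day 28 0 were higher and 1, Socs1, lower. The medians were 0.56 and 0.58 in type 2, and 0.17 and −0.16 in type 1 tissue.

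Lists of immune cell markers did not all rank the groups as the antiviral genes did. At day 7 the NK cell list had a median change of 1.32 in type 2 and 0.55 in type 1 tissue. In that order the T cell list had 0.99 and 0.30, the leukocyte list 0.57 and 0.50, and the macrophage list 0.36 and 0.29. Monocyte (0.52 and 1.15) and neutrophil lists (0.58 and 2.44) had the larger change in type 1 tissue. The B cell list was at −0.0014 and 1.16, with no marker called. In type 2 tissue at day 7 all 8 NK cell markers, 5 of 8 T cell, 5 of 6 general leukocyte, 5 of 10 macrophage and 3 of 6 monocyte markers were higher, and at day 28 the counts were 6, 7, 3, 4 and 2. The summed level of the 6 leukocyte markers at day 7 was 789 to 1216 CPM in non-diabetic, 1221 to 1699 in type 1 and 1298 to 1678 in type 2 libraries, and at day 28 it was 180 to 586, 247 to 501 and 344 to 1286 CPM. The 8 NK cell markers summed to 4.50 to 9.65, 8.39 to 17.8 and 14.3 to 23.4 CPM at day 7, and to 2.03 to 11.3, 2.67 to 6.59 and 6.42 to 18.8 CPM at day 28. No marker of these lists was at 0 in every library of a group.

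In type 1 tissue at day 7 all 6 monocyte markers, 6 of 7 neutrophil, 6 of 10 macrophage, 5 of 6 leukocyte and 3 of 8 NK cell markers were higher, as were 5 of 6 erythroid markers (median change 2.28), and 5 of 7 fibroblast markers were lower. Type 2 tissue at day 7 had 2 of 7 neutrophil markers higher, Mmp8 and Csf3r. Type 2 against type 1 tissue at day 7 called 0 of 6 leukocyte markers and 3 of 8 NK cell markers higher. It called 1 of 10 macrophage (Mrc1), 1 of 6 monocyte (Chil3) and 1 of 7 neutrophil markers (S100a8) lower in type 2 tissue. The neutrophil list had a median change of −1.96 there. No monocyte, neutrophil, macrophage, general leukocyte, NK cell or erythroid marker was called in type 1 tissue at day 28. Of the 7 plasmacytoid dendritic cell markers tested at day 7 only Bst2, itself one of the 36 genes, was called in type 2 tissue, and in type 1 tissue at day 28 Bst2 was higher and Pacsin1 and Klk1 lower. Cardiomyocyte markers, which define the labelled tissue, were detected in all groups (summed level 2609 to 34995 CPM at day 7), and none of 12 was called in type 2 tissue on either day.

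**Figure D5:**
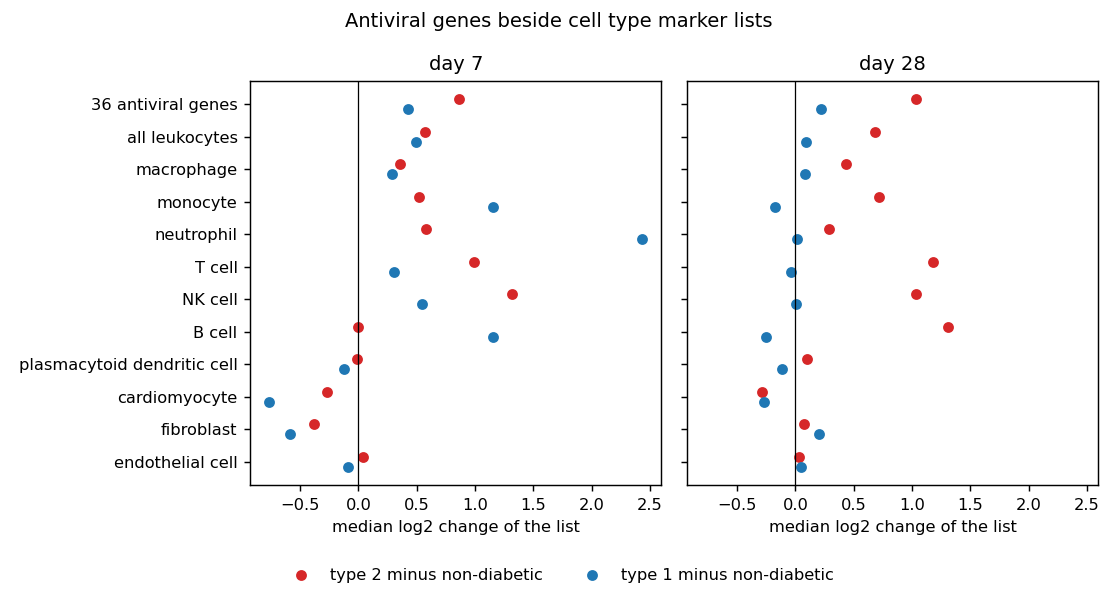
Median log2 change against non-diabetic tissue (x axis) of the 36 antiviral genes and of 11 cell type marker lists (rows), at day 7 and day 28; red is type 2 and blue type 1. The antiviral genes, at 0.86 and 1.03 in type 2 tissue, lie between the leukocyte list (0.57 and 0.68) and the NK cell list at day 7 (1.32), and level with the NK cell list at day 28 (1.03).

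Fits with marker levels as a covariate put values beside this. At day 28 the leukocyte covariate left 36 of 36 genes called in type 2 against non-diabetic tissue, with a median of 0.95. Over all tested genes 1549 were called there, in place of 2024. At day 7 it left 0 called, with a median of 0.58. There the mean log2 CPM of the leukocyte markers did not overlap between non-diabetic (6.71 to 7.39) and type 2 libraries (7.50 to 7.85), and 0 of all 18165 tested genes were called, so leukocyte level and group cannot be told apart at that day. With T cell and NK cell markers as a covariate, an alternative added after the data were seen, 19 of 36 were called at day 7 and 31 at day 28. The medians were 0.63 and 0.92, and over all tested genes 1019 and 898 were called, in place of 1336 and 2024. Type 2 against type 1 tissue at day 7 had 0 called under that covariate, 0 over all tested genes. With macrophage and monocyte markers, also added later, type 1 against non-diabetic tissue at day 7 had 0 called of the 36 and 7 over all genes. The part of cell makeup in the changes was not tested beyond these fits.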

How the data were processed

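RNA-seq gene counts of infarct tissue were deposited by the authors as 1 table for each day, with raw counts per Ensembl gene and library. The submitters' processing notes name the mm39 build and DESeq2; the aligner, the counter and the strand setting are not stated in any source at hand. Of counts from 1 to 49, 76.4% were even at day 7 and 75.2% at day 28. Symbols came from GENCODE M21 (GRCm38) by identifier, so no gene coordinates on mm39 are given; promoters are RefSeq GRCm38.p6.

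Groups came from the sample titles. Genes were filtered with filterByExpr (minimum count 10, total 15), scaled by TMM and tested with the quasi-likelihood test of edgeR 4.0.16 (R 4.3.3), all 3 groups of a day in 1 fit, with Benjamini-Hochberg adjustment over all tested genes. A gene was called at an adjusted p at or under 0.05. A fit of all 6 groups tested differences between days. Log2 CPM used a prior count of 2. The fits were tested on simulated data. Alternatives used DESeq2 1.42.0, limma 3.58.1 (voom), other scaling and filtering, a replicate block, marker covariates, sums of libraries by the first number in their name, and each library left out. The T and NK cell and the macrophage and monocyte covariates were chosen after seeing the data. The genes and lists were chosen with earlier results of these data known. All 36 genes are named, with values by library for 14 of them and for those with the largest and smallest type 2 change; other lists name up to 5 called genes. A gene of the other pathway lists is not reported here. Figures used matplotlib 3.10.9.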

Additional observations from a re-analysis of the deposited data

Results flagged for a closer look

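In groups of up to 10 libraries, 90 sets of values of the named genes were searched for a library far from the rest, and 4 were found, where chance gives about 1 in 20. Non-diabetic replicate 2 at day 7 was low for Zbp1, at 3.31 log2 CPM with the next library at 3.92. Non-diabetic replicate 4 at day 7, the shallowest library, was low for Eif2ak2, at 4.3 with the next at 5.08. Non-diabetic replicate 5 at day 7 was low for Oasl2, at 5.34 with the next at 5.98. Type 1 replicate 10 at day 28 was low for Rsad2, at 3.92 with the next at 4.5.

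In 3 cases the change against non-diabetic tissue differed between days by edgeR's test of the difference. Lgals3bp in type 2 tissue was 0.53 larger at day 28 on the log2 scale (adjusted p = 0.0198). In type 1 tissue the difference was −0.61 for Ddx60 (adjusted p = 0.0222) and −0.96 for Mx1 (adjusted p = 0.00948); these 2 of 36 genes are a share close to the 5.5% of all tested genes called smaller. None of the 3 was called with libraries summed by the first number of their name, Ddx60 and Mx1 were not with macrophage and monocyte markers, and Lgals3bp was not with the replicate block.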

How the results depend on the processing

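Type 2 against non-diabetic tissue kept its direction for each of the 14 genes followed through the alternatives. Of the 36 genes, 0 were called at day 7 with the leukocyte covariate and 19 with T and NK cell markers (0 and 1019 over all genes, in place of 1336). The other settings called 25 to 36 at day 7 and 31 to 36 at day 28. Over all genes the sums called the fewest of those other settings, 176 at day 7 in place of 1336. At day 28 they called 427 in place of 2024. In type 1 against non-diabetic tissue at day 7, 0 were called with the leukocyte covariate, 0 with macrophage and monocyte markers and 11 with sums of libraries by the first number of their name, in place of 24, while calls over all genes went from 4087 to 3, 7 and 1459. In the same comparison at day 28, 7 were called with limma-voom, 7 with only the groups compared in the fit, 9 with macrophage and monocyte markers and 0 with the sums, in place of 4, while calls over all genes went from 759 to 3025, 1116, 1783 and 6, and 3 to 7 with single libraries left out. Type 2 against type 1 tissue at day 7 gave 0 with T and NK cell markers, 0 with the sums and 12 to 27 with single libraries left out, in place of 24, with 0 over all genes in both of the former in place of 492, and at day 28 the sums gave 20 in place of 34 (125 over all genes in place of 607). The sums leave 4 to 6 values a group; for the other settings the cause was not tested.

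For the difference between days in type 2 tissue the sums gave 0 genes in place of 1. In type 1 tissue, in place of 2, limma-voom gave 5, the cardiomyocyte covariate 5 and the leukocyte covariate 4. T and NK cell markers gave 5, macrophage and monocyte markers 1 and the sums 0. Leaving out single libraries gave 2 to 4, with 4 without non-diabetic replicate 5 of day 28. In the main fit 12.5% of all tested genes were called either way in type 1 tissue. Calls over all genes under the other settings are not given here for the difference between days. The counts of this paragraph thus describe the genes and are no result about the set.

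Replicate numbers did not pair the libraries: deviations of same-numbered libraries correlated between −0.42 and 0.37. With the replicate block 2 genes were called in type 1 against non-diabetic tissue at day 28 (333 over all genes) and 0 for the difference between days in type 2 tissue, and no other count of the 36 moved by over 1.5 times.

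Changes of sign were limited to values that were not called. With the leukocyte covariate, Isg15 and Bst2 in type 1 tissue at day 7 went to −0.12 and −0.13, and Bst2 to −0.047 with T and NK cell markers. Mx1 in type 2 against type 1 tissue at day 7 was 0.0094 with no filter, 0.018 with cardiomyocyte markers, 0.17 with T and NK cell markers, 0.11 with macrophage and monocyte markers, 0.094 with the sums, and −0.074 to 0.054 with single libraries left out. Mx1 in type 1 against non-diabetic tissue at day 28 was −0.043 with the replicate block, −0.053 with cardiomyocyte markers, −0.040 with the leukocyte covariate, −0.014 with the sums, and −0.051 to 0.16 with single libraries left out. Rsad2 in that comparison was −0.0023 with limma-voom and −0.012 to 0.097 with single libraries left out. The interferon ligands fell below the count filter and were not tested.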
